A study of Homo sapiens with 6 samples.

Results

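Mitochondrial ribosomal protein genes were examined in NB4, a cell line established from acute promyelocytic leukemia, with and without an sgRNA against ARID1A. The ARID1A protein belongs to SWI/SNF, a complex that remodels chromatin. Members were all protein-coding genes whose symbol is MRPL or MRPS followed by a number, whatever their expression. The annotation (GENCODE release 29, GRCh38) held 78 such genes. Of these, 76 had a transcript in the abundance tables, among 52992 genes in all, and all 76 passed the low-count filter that left 18514 genes for testing. No transcript of the tables matched MRPL45 or MRPS21, which are absent from all expression results. Both are counted in the annotation and promoter results.

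Of the 6 samples, 2 carried LacZ sgRNA (control, labelled WT), 2 carried ARID1A sg1 and 2 carried ARID1A sg5. All groups, LacZ included, expressed Cas9 and an inducible sgRNA from lentiviral vectors and had received doxycycline (1 µg/ml) for 7 days. The cells had been sorted for reporters of both vectors, and the methods describe no single-cell cloning. By those methods, culture continued without doxycycline before RNA isolation. The labels do not say whether replicates came from separate transductions or cultures, so p-values measure the spread between these samples, which may be technical. Each sample held between 46131178 and 54843745 estimated counts. Of the 6 promyelocyte markers examined, 5 were detected at 59.9 TPM (a transcript's share of all transcripts) or more in every sample, whereas ELANE was at 0.290 TPM or less. Erythroid and megakaryocyte markers were at 0.00951 TPM or less. Of the other markers, PRG2 (21.3 to 73.5 TPM), CD3D (12.2 to 19.1) and HDC (6.17 to 17.7) were detected, while CD3E, MS4A1 and CPA3 were at 0.194 or less, EPX reached 3.16 and COL1A1 reached 0.431.

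RNA of the targeted gene was lower than LacZ in sg5, though not at an FDR of 0.1, and was not lower in sg1. ARID1A RNA, in CPM (counts scaled to library size), was 155 and 191 with LacZ, 211 and 191 with sg1 and 124 and 145 with sg5. Both sg1 libraries were at or above the higher LacZ library, and both sg5 libraries were below the lower one. By the quasi-likelihood test of edgeR the log2 difference from LacZ was 0.22 (SE 0.14, adjusted p = 0.993) in sg1 and -0.36 (SE 0.14, adjusted p = 0.661) in sg5. RNA level does not measure whether a reading frame was cut, and the samples are named by their labels throughout.

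Replicates of each sgRNA differed more than the LacZ replicates. On the first principal component of log2 CPM, which held 34.4% of the variance, sg1 replicate 1 scored 34.3 and sg5 replicate 2 scored 46.8. The other 4 samples scored from -30.3 to -11.3. Differences from LacZ over the family are therefore also given without these 2 libraries.

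Mitochondria keep their own ribosome, which translates the few mRNAs of the mitochondrial genome into membrane subunits of the respiratory chain and ATP synthase. Its rRNAs are transcribed inside the organelle, whereas all of its proteins are encoded by nuclear genes, made in the cytosol and imported. The proteins are of 2 kinds, those with a counterpart in bacterial ribosomes and those found only in mitochondria. ETS factors such as GABP, YY1 and NRF1 are known regulators of nuclear genes for mitochondrial proteins.

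Among the 78 members, 51 belonged to the large subunit and 26 to the small subunit. MRPS36 was counted apart, since in current structures it belongs to the 2-oxoglutarate dehydrogenase complex. By origin, 46 members had a bacterial counterpart and 31 were specific to mitochondria. They lay on 21 chromosomes. Exons of 15 members overlapped another gene on the same strand by at least 50 bases, and 26 overlapped a gene on the other strand. The strand setting of the counting is not given in the sources used here, so reads of such partners cannot be told apart.

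Promoter sequences of the members were searched for the letters of 6 known motifs on both strands. RefSeq (GRCh38.p14) gave a window of 250 bases before to 50 bases after the start for 69 of the 78 members. The ETS letters CCGGAAG were present in 30 of these members (43.5%), against 12.2% of 27305 genes with a window and 16.5% of the 15842 protein-coding ones. The YY1 letters AAGATGGC were present in 21 members (30.4%), against 3.52% of all genes and 4.66% of protein-coding genes. Either set of letters was found in 43 members and both in 8. The NRF1 letters GCGCATGC occurred in 6 members (8.70%, against 3.68% of all genes and 4.89% of protein-coding genes). The E-box CACGTG occurred in 9 (13.0%, against 8.77% and 10.9%). The NFY letters CCAAT occurred in 23 members (33.3%, against 39.7% and 42.1%) and TATAAA in 3 (4.35%, against 14.0% and 12.4%). The ETS letters end with the AAG that begins the YY1 letters, so that both can share bases, and a match is a description of the window, not a binding site.

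Of these promoters, 5 are shown from 150 bases before to 30 bases after the RefSeq start, with motif letters in capitals. MRPL44 (chr2:223957313-223957492 (+ strand)), MRPL50 (chr9:101398589-101398768 (- strand)) and MRPL33 (chr2:27771569-27771748 (+ strand)) are shown because they had the smallest p-values in sg5. MRPL51 (chr12:6493233-6493412 (- strand)) was above both LacZ samples in every ARID1A-deficient sample and holds both ETS and YY1 letters. MRPL4 (chr19:10251801-10251980 (+ strand), the first of its listed starts) was the most abundant member.
MRPL44: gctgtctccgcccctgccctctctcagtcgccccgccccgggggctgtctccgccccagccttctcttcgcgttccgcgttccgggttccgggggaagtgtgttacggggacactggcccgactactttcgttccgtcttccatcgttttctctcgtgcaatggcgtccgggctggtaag
MRPL50: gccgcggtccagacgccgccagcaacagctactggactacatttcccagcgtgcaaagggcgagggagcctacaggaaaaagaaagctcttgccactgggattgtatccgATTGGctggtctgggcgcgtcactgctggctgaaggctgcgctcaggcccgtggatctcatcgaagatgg
MRPL33: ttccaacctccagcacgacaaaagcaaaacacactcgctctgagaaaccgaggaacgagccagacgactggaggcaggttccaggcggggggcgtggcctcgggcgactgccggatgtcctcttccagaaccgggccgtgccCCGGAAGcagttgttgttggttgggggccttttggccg
MRPL51: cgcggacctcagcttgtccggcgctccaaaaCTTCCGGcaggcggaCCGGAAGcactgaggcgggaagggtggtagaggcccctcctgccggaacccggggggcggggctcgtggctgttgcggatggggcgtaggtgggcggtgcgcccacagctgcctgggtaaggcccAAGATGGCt
MRPL4: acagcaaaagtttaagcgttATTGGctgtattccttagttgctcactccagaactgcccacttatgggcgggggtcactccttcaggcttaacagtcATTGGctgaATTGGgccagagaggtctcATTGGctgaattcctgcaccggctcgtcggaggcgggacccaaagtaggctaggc
The capitals mark NFY letters on the reverse strand in MRPL50 and MRPL4, ETS letters in MRPL33, and ETS letters on both strands followed by YY1 letters in MRPL51. None of the 6 sets of letters was in the MRPL44 stretch shown. The longer windows used for the counts also held NFY letters for MRPL44 and YY1 letters for MRPL50.

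RNA-sequencing revealed a wide range of levels within the family. Levels between genes were compared in TPM, which is scaled by effective transcript length. The median member had a mean of 77.5 TPM over the 6 samples, 25 members were above 100 TPM and 6 were below 30 TPM. MRPL4, a large subunit protein near the exit tunnel, stood alone at the top with 812 and 905 TPM with LacZ, 942 and 787 with sg1 and 738 and 845 with sg5. It held from 10.6% to 12.5% of the summed TPM of the family and was from 3.24 to 3.60 times the second most abundant member of the same sample. MRPL12, the stalk protein that recruits translation factors, followed with a mean of 244 TPM. MRPS34 (216 TPM) and MRPS24 (205 TPM) of the small subunit and MRPL52 (189 TPM) of the large subunit came next.

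The lowest members were MRPL30 with a mean of 7.63 TPM, MRPL50 with 10.1, MRPS17 with 23.0, MRPL1 with 24.1 and MRPL40 with 26.3. MRPL30 was the least even, at 8.62 and 4.50 TPM with LacZ, 9.14 and 5.70 with sg1 and 12.2 and 5.63 with sg5, from 159 to 444 estimated counts. It shares exons with transcripts on the same strand, and replicates differed in it more than groups did. Of the 75 neighbouring pairs in the order of mean TPM, the ranges over the 6 samples were apart in 2, MRPL4 above MRPL12 and MRPS17 above MRPL50. The ranges of all other neighbours overlapped, so ranges over samples do not rank them. Order within each sample can still hold, as for MRPL12, which was above MRPS34 in every sample. The median was 80.1 TPM over 50 large subunit genes and 67.0 TPM over 25 small subunit genes, and 81.9 TPM over 45 genes with a bacterial counterpart against 70.9 TPM over 30 mitochondria-specific genes.

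**Figure D1:**
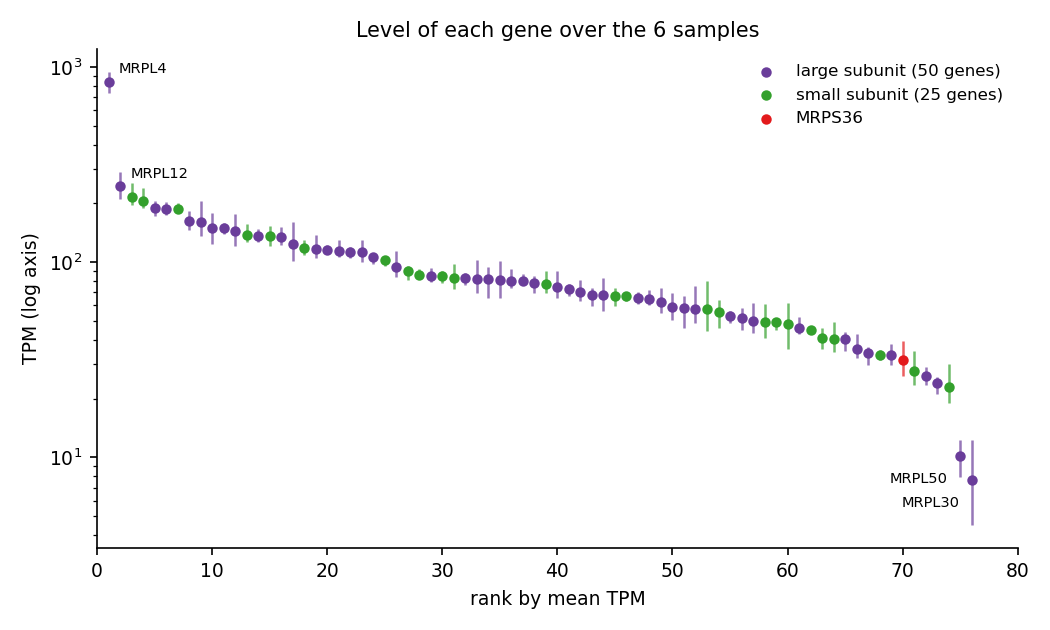
Mean TPM of the 76 members (points, log axis) against their rank, with lines from the lowest to the highest of the 6 samples and colors for the subunit. MRPL4 lies alone at 838 TPM, MRPL50 and MRPL30 lie at 10.1 and 7.63 TPM, and the lines of nearly all neighbours overlap.

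To determine whether ARID1A sgRNAs altered the family, each sgRNA was compared with LacZ. No member was called at a false discovery rate (FDR) of 0.1 by edgeR in sg1 or in sg5. All genes together gave 7 calls in sg1 (0.0378% of 18514) and 18 in sg5 (0.0972%). In sg1, 0 members passed an unadjusted p of 0.05 in either direction, against 1.86% of all genes higher and 2.3% lower. In sg5, 3 members passed it as higher (MRPL44, MRPL50 and MRPL33; 3.95%, against 2.95% of all genes) and 0 as lower (against 4.52%). DESeq2 also called 0 members in either comparison. The edgeR counts at the unadjusted threshold depended on single libraries. They changed when single replicates were left out, in fits that leave 1 sample in a group. Shares over all genes in those fits are not given here. Both comparisons use the same LacZ samples.

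The direction of the small differences was nevertheless uneven. The log2 difference from LacZ was above 0 in 62 of 76 members in sg1 (81.6%, against 50.3% of all genes) and in 59 in sg5 (77.6%, against 48.6%). Its median was 0.08 in sg1 and 0.12 in sg5, against 0.00 and -0.01 over all genes. Members ranged from -0.17 to 0.54 in sg1 and from -0.16 to 0.55 in sg5, with SEs from 0.10 to 0.43. The lean was not particular to the family. Among lists described below, cytosolic ribosomal proteins had 92.8% (sg1) and 89.2% (sg5) of genes above 0. Nuclear oxidative phosphorylation had 87.1% and 83.5%, S phase 90.5% and 97.6%, and G2/M 94.3% in both. The RNAs of the mitochondrial genome went the other way, with 33.3% and 26.7%. Without sg1 replicate 1 and sg5 replicate 2, 28 members were above 0 in sg1 (36.8%, against 50.9% of all genes) and 47 in sg5 (61.8%, against 48.8%), and the medians were -0.04 and 0.02. Without these libraries the shift was thus absent in sg1 and smaller in sg5, where more members than genes in all still lay above 0. The libraries were set apart with earlier results known, so the change describes the division and carries no test.

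With both sgRNAs joined against LacZ, 0 members were called at FDR 0.1 by edgeR, where all genes gave 31 calls (0.167%), and DESeq2 also called 0. At the unadjusted threshold 3 members were higher (MRPL44, MRPS36 and MRPL33, against 2.89% of all genes) and 0 were lower (against 4.32%). The number of members higher there also changed when single replicates were left out, in fits that leave 1 sample in a group. The median log2 difference was 0.11 (all genes -0.01), and -0.01 without sg1 replicate 1 and sg5 replicate 2. By subunit, the joined median was 0.12 over the large and 0.09 over the small subunit. By origin, it was 0.12 over members with a bacterial counterpart and 0.07 over mitochondria-specific ones. Without the 2 libraries these medians were -0.02 and 0.00 by subunit and -0.01 and -0.02 by origin.

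The sgRNAs were next compared with each other. No member was called by edgeR (1 call over all genes, 0.0054%) or by DESeq2, and 0 passed an unadjusted p of 0.05, against 0.972% of all genes higher in sg1 and 0.411% higher in sg5. The median log2 difference, sg1 minus sg5, was -0.04, and 47 of 76 members were lower in sg1. By leaving out single replicates it moved from -0.18 without sg1 replicate 1 to 0.09 without sg5 replicate 2. The members with the smallest p-values were MRPL50 (-0.24, SE 0.16), MRPL39 (-0.18, SE 0.13) and MRPS33 (-0.17, SE 0.14) in one direction. In the other were MRPS34 (0.17, SE 0.15), MRPL41 (0.18, SE 0.19) and MRPL38 (0.11, SE 0.12). The adjusted p was 1.00 for each, and MRPS34, MRPL41 and MRPL38 turned negative without sg1 replicate 1.

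Among single genes, MRPL44 was among the members with an unadjusted p under the threshold in sg5 and joined. It encodes a mitochondria-specific large subunit protein with a ribonuclease III fold, lies on chromosome 2 (223957404 to 223967714) and overlaps a noncoding transcript of few counts on the other strand. Its CPM was 39.6 and 37.7 with LacZ, 47.1 and 42.8 with sg1 and 46.5 and 48.7 with sg5. All 4 ARID1A-deficient samples were above both LacZ samples. The log2 difference was 0.22 (SE 0.12, adjusted p = 0.993) in sg1, 0.30 (SE 0.12, adjusted p = 0.661) in sg5 and 0.26 (SE 0.10, adjusted p = 0.639) with both joined, none of which passed the edgeR threshold.

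MRPL50, another mitochondria-specific large subunit protein, had a CPM of 25.5 and 20.3 with LacZ, 26.1 and 24.5 with sg1 and 27.3 and 32.4 with sg5. Both sg5 samples and sg1 replicate 1 were above LacZ, and sg1 replicate 2 lay between the LacZ samples. The log2 difference in sg5 was 0.38 (SE 0.16, adjusted p = 0.663) and in sg1 0.14 (SE 0.16), which became -0.01 without LacZ replicate 2.

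MRPL33, a small large-subunit protein with a bacterial counterpart, had a CPM of 31.5 and 29.5 with LacZ, 43.7 and 31.2 with sg1 and 41.0 and 39.0 with sg5. Both sg5 samples and sg1 replicate 1 were above LacZ, and sg1 replicate 2 lay between the LacZ samples. The log2 difference was 0.39 (SE 0.16, adjusted p = 0.663 by edgeR) in sg5, and 0.42 when sg1 replicate 1 and sg5 replicate 2 were left out. That fit has single samples in both sgRNA groups. The gene shares exons with BABAM2, whose CPM was 25.3 and 19.1 with LacZ, 20.9 and 20.3 with sg1 and 26.4 and 18.2 with sg5.

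MRPS36, also known as KGD4, had a CPM of 19.0 and 18.01 with LacZ, 26.1 and 20.8 with sg1 and 21.3 and 24.9 with sg5. All 4 ARID1A-deficient samples were above both LacZ samples. The log2 difference was 0.34 (SE 0.16) in sg1, 0.32 (SE 0.16) in sg5 and 0.33 (SE 0.14, adjusted p = 0.669) joined, and without sg1 replicate 1 and sg5 replicate 2 it was 0.17, 0.20 and 0.19. MRPS6, of the small subunit, showed the largest difference in sg1 and was at 29.4 and 31.1 CPM with LacZ, 55.2 and 33.03 with sg1 and 35.01 and 53.5 with sg5. Its log2 difference was 0.54 (SE 0.27, adjusted p = 0.993) in sg1 and 0.55 (SE 0.27, adjusted p = 0.688) in sg5, and most of it lay in sg1 replicate 1 and sg5 replicate 2, without which it was 0.13 and 0.21. MRPS6 shares exons with SLC5A3, a myo-inositol transporter, which was at 34.9 and 31.3 CPM with LacZ, 51.9 and 40.8 with sg1 and 41.3 and 51.5 with sg5. Without a low-count filter MRPS6 was called in both sgRNAs (adjusted p = 0.0498 and 0.0293).

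Few members were lower in every ARID1A-deficient sample. MRPS30, a large subunit protein despite its name, was at 112 and 118 CPM with LacZ, 108 and 107 with sg1 and 101 and 104 with sg5. MRPS18A, the paralog of the MRPS18 family that sits in the large subunit, was at 38.9 and 39.4 CPM with LacZ, 37.6 and 35.3 with sg1 and 37.3 and 35.2 with sg5. Both were below both LacZ samples in all 4, by small amounts, with log2 differences of -0.10 and -0.16 for MRPS30 and -0.10 and -0.11 for MRPS18A in sg1 and sg5 (adjusted p = 0.993 and 0.717, and 0.993 and 0.810, by edgeR). The small subunit paralogs did not follow one direction. MRPS18B was at 66.0 and 62.5 CPM with LacZ, 54.4 and 59.6 with sg1 and 66.6 and 51.9 with sg5. MRPS18C was at 26.9 and 26.3 with LacZ, 28.9 and 26.8 with sg1 and 27.7 and 31.5 with sg5. The log2 difference of MRPS18B was -0.17 (SE 0.14) in sg1 and -0.12 (SE 0.14) in sg5, and the latter became 0.05 without sg5 replicate 2.

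**Figure D2:**
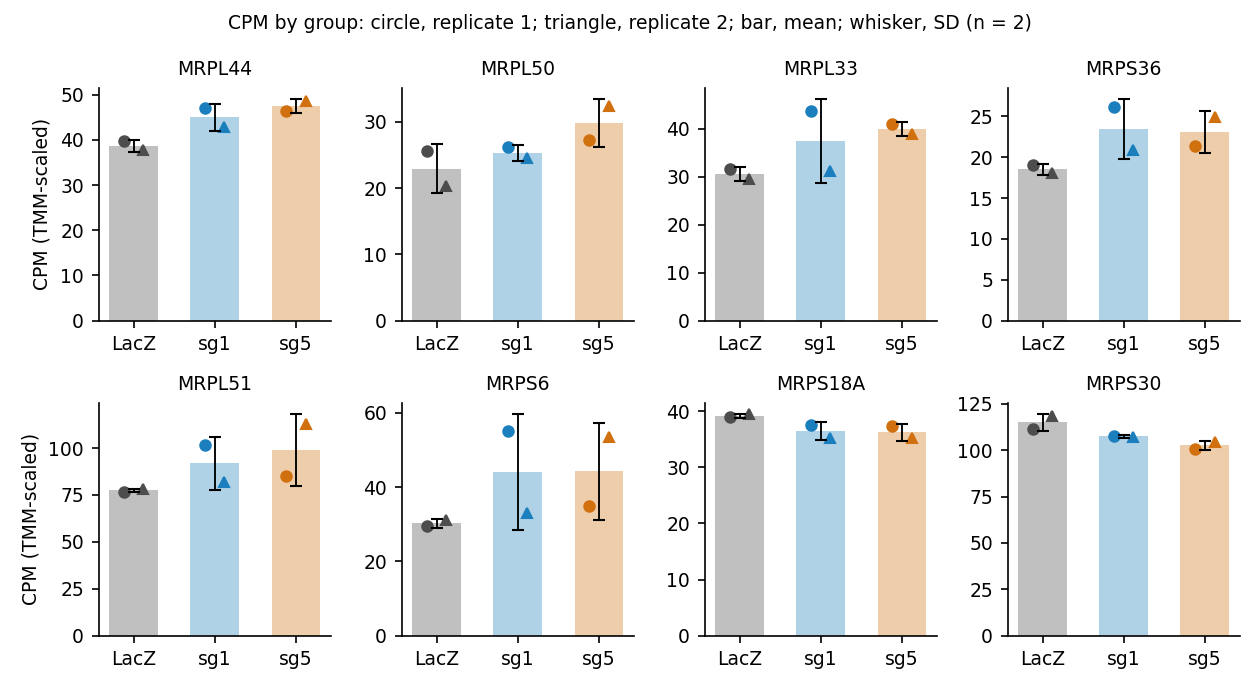
CPM of 8 members in LacZ, sg1 and sg5, with circles for replicate 1, triangles for replicate 2, bars for the mean and whiskers for the SD (n = 2). MRPL44, MRPS36, MRPL51 and MRPS6 lie above both LacZ samples in all 4 ARID1A-deficient samples, MRPS18A and MRPS30 lie below, and the 2 samples of sg1 and of sg5 are far apart in MRPS6.

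Over the whole family, all 4 ARID1A-deficient samples were above both LacZ samples in 11 members and below both in 2, against 9.72% and 10.4% of all genes (14.5% and 2.63% of members). With sg1 replicate 2 and sg5 replicate 1 alone, 12 members were above and 12 below (15.8% each), against 19.7% and 18.5% of all genes. Besides MRPL44, MRPS36 and MRPS6, the 11 were MRPL9, MRPL19, MRPL27, MRPL35, MRPL51, MRPS16, MRPS33 and MRPS35. MRPL51 was at 76.7 and 78.1 CPM with LacZ, 102 and 81.7 with sg1 and 85.2 and 113 with sg5. On the other strand it overlaps NCAPD2, a condensin subunit, which was at 252 and 223 CPM with LacZ, 248 and 230 with sg1 and 245 and 249 with sg5. MRPS16, a core small subunit protein, was at 95.3 and 99.8 CPM with LacZ, 104 and 103 with sg1 and 109 and 105 with sg5, with a spread within groups of the same order as the gap between them.

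The samples of one sgRNA differed widely for the family. In sg1 replicate 1, 66 of 76 members (86.8%) were above both LacZ samples and 8 (10.5%) below, against 37.0% and 41.5% of all genes. In sg5 replicate 2, 60 (78.9%) were above and 8 below, against 37.4% and 42.6%. The other libraries of the same sgRNAs looked different. In sg1 replicate 2, 14 members (18.4%) were above and 34 (44.7%) below, against 35.1% and 31.6% of all genes, and in sg5 replicate 1, 35 (46.1%) were above and 19 below, against 36.7% and 36.8%. The division into these pairs of libraries was known when the members were chosen, so that these counts describe it and carry no test.

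The median member, as log2 CPM minus the LacZ mean, was at 0.21 in sg1 replicate 1 and at 0.19 in sg5 replicate 2. It was at -0.04 in sg1 replicate 2, at 0.02 in sg5 replicate 1, and at -0.01 and 0.01 in the LacZ samples. The median over all genes stayed between -0.02 and 0.01 in the 6 samples. Expressed as a share of all TPM, the summed family took 0.708% and 0.725% with LacZ, 0.807% and 0.682% with sg1 and 0.697% and 0.782% with sg5. By group (mean ± SD, n = 2) the share was 0.717% ± 0.0122 for LacZ, 0.744% ± 0.0884 for sg1 and 0.739% ± 0.0601 for sg5. Group means thus differed by less than the spread within either sgRNA group. Relative to the LacZ mean, the share was 1.13 in sg1 replicate 1 and 1.09 in sg5 replicate 2, and 1.12 in both without the 5 most abundant members.

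**Figure D3:**
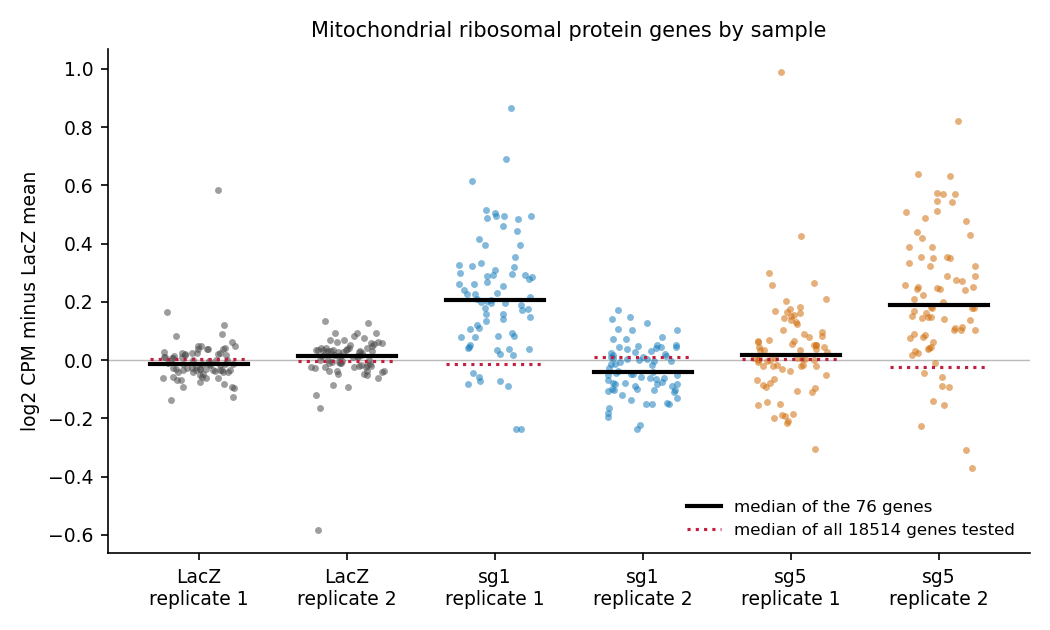
Log2 CPM minus the LacZ mean for each of the 76 members (points) in each sample, with their median (black line) and the median of all 18514 genes tested (dotted line). The medians of sg1 replicate 1 (0.21) and sg5 replicate 2 (0.19) lie above 0, and those of the other 4 samples lie between -0.04 and 0.02.

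Within each sgRNA, replicates were compared gene by gene. CPM was higher in sg1 replicate 1 than in replicate 2 for 71 of 76 members (93.4%, against 47.6% of all genes) and higher in sg5 replicate 2 than in replicate 1 for 61 (80.3%, against 48.6%). LacZ replicate 1 was higher than replicate 2 for 31 members (40.8%, against 51.0%). The median log2 difference between replicates was 0.25 in sg1, 0.21 in sg5 and -0.03 in LacZ, where all genes gave -0.02, -0.01 and 0.01. The 58 members (76.3%) that were higher in both sg1 replicate 1 and sg5 replicate 2 compare with 30.3% of all genes. Across the 76 members, the 2 differences correlated with a Pearson r of 0.51 (0.21 over 18514 genes). Genes are not independent replicates, and each difference rests on 2 libraries.

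Large differences were found in both subunits. Between replicates MRPS28 had log2 differences of 0.75 (sg1) and 0.59 (sg5), with CPM of 27.0 and 16.1 in sg1 and of 17.4 and 26.2 in sg5, while LacZ was at 17.2 and 18.1. MRPL14, of the large subunit near the interface, was at 65.1 and 43.8 CPM in sg1 and at 41.7 and 66.2 in sg5, against 46.4 and 46.4 in LacZ. MRPL36, a short protein with a bacterial counterpart, was at 55.01 and 36.6 CPM in sg1 and at 39.7 and 60.3 in sg5, against 38.8 and 38.7 in LacZ. In these genes the lower library of each sgRNA lay close to LacZ. MRPS12, the decoding-centre protein, was at 42.3 and 29.4 CPM in sg1 and at 28.1 and 41.6 in sg5, against 30.3 and 31.9 in LacZ. It overlaps SARS2 on the other strand, which stayed between 42.8 and 52.5 CPM in all 6 samples. MRPS17 (differences of 0.50 and 0.48) shares exons with NIPSNAP2. These genes were picked for their differences after their values were seen.

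A few members went the other way. MRPL10, the stalk base protein, was at 56.3 and 68.4 CPM in sg1 and at 72.2 and 51.3 in sg5, against 69.3 and 63.5 in LacZ, so that it was lowest in the 2 libraries in which the family was high. MRPS18B showed the same order. MRPL30 differed by 0.64 in sg1 and by -0.81 in sg5, and by 1.17 between the LacZ replicates. Of the other stalk proteins, MRPL11 was at 74.2 and 80.6 CPM with LacZ, 90.6 and 77.0 with sg1 and 74.6 and 93.4 with sg5, and MRPL12 at 157 and 179 with LacZ, 206 and 151 with sg1 and 145 and 180 with sg5. MRPL3, a core large subunit protein, was at 151 and 149.4 CPM with LacZ, 170 and 142 with sg1 and 151 and 176 with sg5. MRPL58, a peptidyl-tRNA hydrolase that is also a ribosomal protein, ranged from 26.1 to 32.1 CPM over the 6 samples. MRPS22 of the small subunit varied less, from 48.4 to 54.0 CPM.

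**Figure D4:**
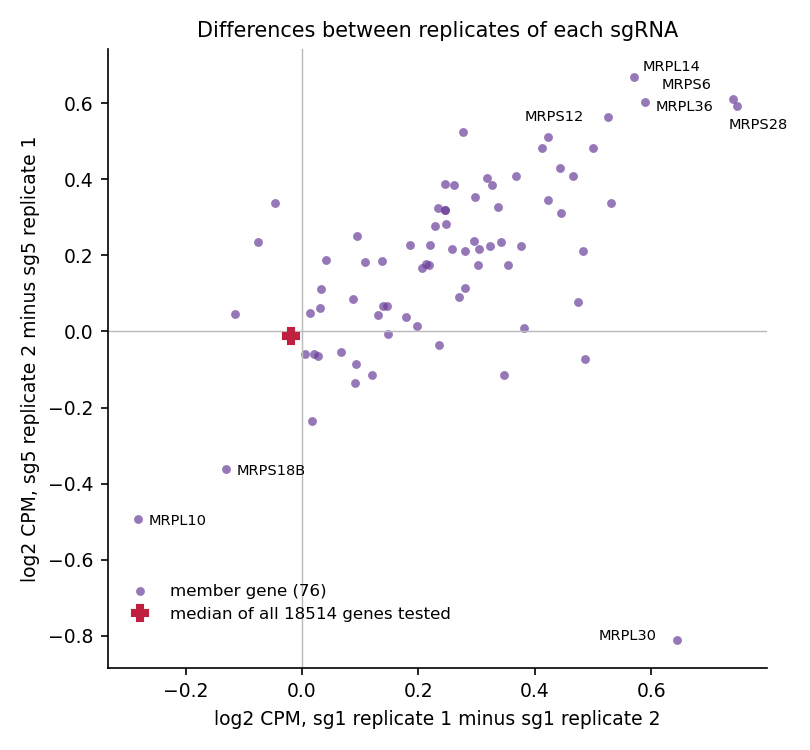
Log2 CPM of sg1 replicate 1 minus replicate 2 (x axis) and of sg5 replicate 2 minus replicate 1 (y axis) for each of the 76 members, with the median of all 18514 genes tested as a cross. Of the 76 points, 58 lie above 0 on both axes and 2, MRPL10 and MRPS18B, below 0 on both.

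Other genes of mitochondrial gene expression were then placed beside the family. None of the genes in these lists was called at FDR 0.1 in either sgRNA by edgeR. Mitoribosomal proteins with other symbols (DAP3, PTCD3, CHCHD1, AURKAIP1 and GADD45GIP1, 5 genes) had medians of 0.28 in sg1 replicate 1 and 0.14 in sg5 replicate 2 against the LacZ mean, and of -0.07 in both other ARID1A-deficient samples. GADD45GIP1 was at 80.2 and 98.8 CPM with LacZ, 120 and 79.8 with sg1 and 77.5 and 97.3 with sg5. DAP3, the GTP-binding small subunit protein, was at 143 and 142 CPM with LacZ, 146 and 149.3 with sg1 and 161 and 145 with sg5. For 25 factors of ribosome assembly and rRNA modification, the medians were 0.06 and 0.12 in sg1 replicate 1 and sg5 replicate 2. In this list, 1 gene passed the unadjusted threshold in sg5 as higher (FASTKD2, 0.40, adjusted p = 0.574 by edgeR), or 4.0% against 2.95% of all genes. The 15 translation factors had medians of 0.00 and 0.12 and the 20 aminoacyl-tRNA synthetases 0.04 and 0.11, with 1 synthetase (5.0%), RARS2, past the unadjusted threshold as higher in sg5 (0.33, adjusted p = 0.663 by edgeR).

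For mitochondrial DNA replication and transcription (10 genes), the medians were 0.13 in sg1 replicate 1 and 0.19 in sg5 replicate 2, and TFAM was at 124 and 124 CPM with LacZ, 141 and 125 with sg1 and 136 and 152 with sg5. The 10 nuclear regulators had medians of 0.07 and 0.17 in these libraries, and of -0.005 in sg1 replicate 2 and -0.08 in sg5 replicate 1. With LacZ they were at -0.08 and 0.08, so sg1 replicate 1 did not exceed both LacZ samples. Among them, YY1 was at 171 and 162 CPM with LacZ, 199 and 158 with sg1 and 169 and 189 with sg5. GABPA was at 48.2 and 46.1 CPM with LacZ, 49.4 and 49.7 with sg1 and 53.8 and 52.4 with sg5, and MYC was at 835 and 955 with LacZ, 716 and 887 with sg1 and 759 and 784 with sg5. The mitochondrial stress list (8 genes) had medians of -0.04 in sg1 replicate 1 and -0.28 in sg5 replicate 2. It was at -0.09 in sg1 replicate 2, -0.02 in sg5 replicate 1, and -0.05 and 0.05 with LacZ. In this list 1 gene (12.5%), DDIT3, passed the unadjusted threshold as lower in sg5 (-1.12, adjusted p = 0.563 by edgeR), against 4.52% of all genes. The 15 RNAs of the mitochondrial genome did not divide the samples as the ribosomal proteins did. Their median was -0.20 in sg1 replicate 1 and 0.17 in sg1 replicate 2, and -0.24 in sg5 replicate 1 and 0.17 in sg5 replicate 2. With LacZ it was -0.08 in replicate 1 and 0.08 in replicate 2, so replicate 2 had the higher median in every group. The large rRNA MT-RNR2 was at 2797 and 3009 CPM with LacZ, 1455 and 3383 with sg1 and 2651 and 1875 with sg5, and was lowest in sg1 replicate 1 and sg5 replicate 2. Of the 15 RNAs, 0 were higher in replicate 1 than in replicate 2 with LacZ, and likewise 0 in sg1. In sg5, 13 were higher in replicate 2 than in replicate 1, with both rRNAs, MT-RNR1 and MT-RNR2, as the exceptions.

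Nuclear genes of oxidative phosphorylation (85 tested) had medians of 0.26 in sg1 replicate 1 and 0.27 in sg5 replicate 2, and of 0.02 and 0.08 in the other libraries of sg1 and sg5. At the unadjusted threshold, 2 of the 85 were higher in sg1 (2.35%, against 1.86% of all genes), 8 in sg5 (9.41%, against 2.95%) and 10 joined (11.8%, against 2.89%). The 83 cytosolic ribosomal protein genes differed in order, with 0.08 in each sg1 library, 0.19 in sg5 replicate 1 and 0.06 in sg5 replicate 2, and 2 of them (2.41%) were past that threshold as higher in sg5. The proliferation lists also moved with the division between libraries. The S phase list (42 genes tested) had medians of 0.25 in sg1 replicate 1 and 0.37 in sg5 replicate 2, and of 0.08 and 0.12 in the other libraries of sg1 and sg5. The G2/M list (53 genes tested) had 0.25 and 0.36, and 0.04 and 0.01. In sg5, 9 S phase genes (21.4%) and 2 G2/M genes (3.77%) were past the unadjusted threshold as higher, against 2.95% of all genes. Members are also short, with a median effective length of 929 bases against 1943 over protein-coding genes tested. In the fifth of protein-coding genes with the shortest transcripts, which held 51 of the 76 members, non-members differed between replicates by a median of 0.06 in sg1 and of 0.00 in sg5, whereas members differed by 0.27 and 0.19. The part of proliferation and transcript length in the levels of the family was not tested. In bulk RNA, a change in all cells and a larger one in some cells cannot be told apart, nor can fewer cells of a type and less RNA per cell.

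**Figure D5:**
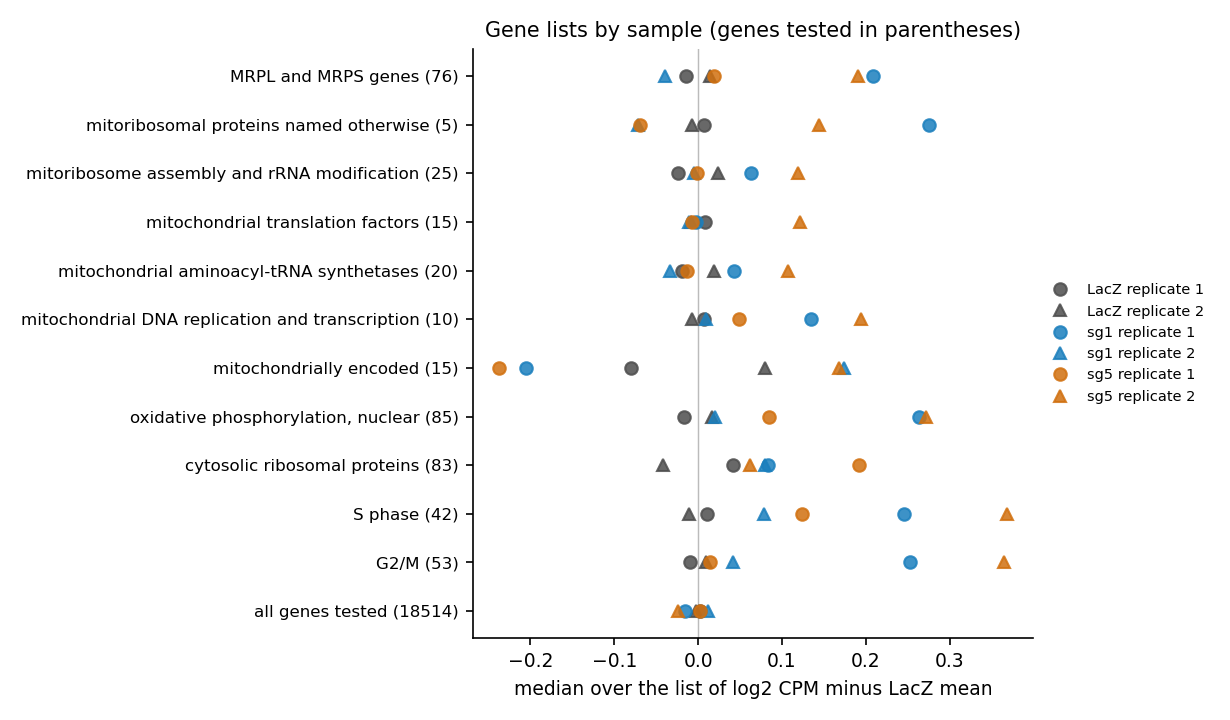
Median over each gene list of log2 CPM minus the LacZ mean, by sample (circles, replicate 1; triangles, replicate 2), with the number of genes tested in parentheses. For the MRPL and MRPS genes, nuclear oxidative phosphorylation, S phase and G2/M, sg1 replicate 1 and sg5 replicate 2 lie to the right of the other 4 samples, whereas RNAs of the mitochondrial genome do not follow this order.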

How the data were processed

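RNA from 6 NB4 samples (LacZ, sg1 and sg5, 2 replicates each) was sequenced. Per the labels, the authors quantified transcripts with kallisto, and their processing notes also name DESeq2 and hg19. The human transcript set is not given in the sources used here. The deposited values were estimated counts per transcript, which need not be whole, and TPM, which the authors scaled by effective length. Of 196354 transcripts, 181857 (92.6%) matched GENCODE 29 by identifier and carried 95.4% to 95.5% of the estimated counts. Sums per gene were rounded and tested with edgeR 4.0.16 (R 4.3.3; TMM, filterByExpr with a minimum count of 10, robust quasi-likelihood F-test, group as the only term, all samples). P-values were adjusted over 18514 genes, and an FDR under 0.1 was called. CPM are TMM-scaled, log2 CPM used a prior count of 2, and SEs came from the F statistic. DESeq2 1.42.0 and the settings below were alternatives. The fit was tested on simulated counts. The common biological coefficient of variation was 16.6%.

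Members, gene lists and comparisons were chosen with earlier results of these data known. Named genes were the 3 members with the smallest p in each direction of each contrast, the 5 most and 5 least abundant, a panel (MRPS18A, MRPS18B, MRPS18C, MRPL3, MRPL10, MRPL11, MRPL12, MRPL44, MRPL58, MRPS12, MRPS16, MRPS22, MRPS34, MRPS36) and ARID1A. Others were picked after their values were seen. Cell cycle lists came with Seurat 5.3.0. Replicate pairs differed beyond sampling noise (chi-square per degree of freedom 15.4 in LacZ, 53.8 in sg1 and 66.2 in sg5). A cell type marker that was examined is not reported here.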

Additional observations from a re-analysis of the deposited data

Results flagged for a closer look

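In 2 members, 1 of the 4 ARID1A-deficient samples stood apart from the other 3 by Dixon's criterion, in which the gap to the nearest sample is divided by the range (critical value 0.829 for 4 samples). MRPL38 was highest in sg1 replicate 1, with a ratio of 0.924, at 114 CPM against 99.4 in sg1 replicate 2 and 98.2 and 99.2 in sg5, while the LacZ samples were at 99.1 and 113. MRPS22 was lowest in sg1 replicate 2, with a ratio of 0.919, at 48.4 CPM against 53.6 in sg1 replicate 1 and 54.0 and 53.8 in sg5, with LacZ at 53.0 and 51.3. In all, 30 sets of 4 values were examined, and chance flags about 1 in 20.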

How the results depend on the processing

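The count of members called at FDR 0.1 stayed at 0 in every contrast with DESeq2, DESeq2 size factors, a mean of at least 50 counts, a length offset, no robust estimation, only the groups compared, FDR 0.05 and each replicate left out. It became 1 (MRPS6) without a low-count filter in sg1, sg5 and both joined, where 345, 632 and 701 genes were called in all. It became 1 without sg1 replicate 1 and sg5 replicate 2 in sg5 (MRPL33, among 787 calls) and joined (MRPL41, lower, among 809), a fit with single samples in both sgRNA groups that are assumed to vary like LacZ. Shares over all genes in these fits are not given here, and the cause was not tested. With the replicate number as a block, 0 members were called in each contrast. Calls over all genes went from 7 to 1 in sg1, 18 to 1 in sg5 and 31 to 3 joined. The labels do not say what the numbers mark, and deviations of same-numbered samples correlated at 0.07, 0.01 and -0.21 over all genes. The RNAs of the mitochondrial genome nevertheless had the higher median in replicate 2 of every group.

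The number of members past an unadjusted p of 0.05 changed between settings in sg1, in sg5, between the sgRNAs and joined. Shares over all genes in each setting are not given here, so the numbers are not set side by side. DESeq2 called 116, 201, 5 and 264 genes in all in these contrasts, where edgeR called 7, 18, 1 and 31. The median log2 difference in sg1 ranged from -0.051 to 0.22 with single replicates left out and was -0.04 without sg1 replicate 1 and sg5 replicate 2, and that of sg1 against sg5 ranged from -0.18 to 0.092. In sg5 and joined it ranged from 0.01 to 0.21 and from 0.04 to 0.18. The number of members above both LacZ samples in sg1 replicate 2 (14) was 6 with deposited TPM, 31 against LacZ replicate 1 alone and 25 against LacZ replicate 2 alone. MRPS18B in sg5 turned from -0.12 to 0.052 without both libraries. With single replicates left out, MRPL50 in sg1 ranged from -0.015 to 0.32, MRPS18B in sg5 from -0.29 to 0.046, and, in sg1 against sg5, MRPL38 from -0.0076 to 0.21, MRPL41 from -0.13 to 0.42 and MRPS34 from -0.033 to 0.34. With 2 replicates and SEs of 0.10 or more, differences of the size of the medians were not detectable in single genes at this replication.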
